A study of Rattus norvegicus with 10 samples.

Results

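The genes described here encode the NF-κB subunits and the proteins that hold NF-κB in check. They were taken from a list of 10 genes, made up of 5 subunit genes (Nfkb1, Nfkb2, Rel, Rela and Relb) and 5 inhibitor genes (Nfkbia, Nfkbib, Nfkbie, Nfkbiz and Tnfaip3). Of these, 7 were present in the expression table of 9003 genes. They were 3 subunit genes, Nfkb1, Nfkb2 and Rela, and 4 inhibitor genes, Nfkbia, Nfkbib, Nfkbie and Nfkbiz. Nfkbiz is listed with the inhibitors, but its product is also needed for a later wave of NF-κB target genes. The expression of Rel, Relb and Tnfaip3 was not analysed here.

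NF-κB proteins are dimeric transcription factors that wait in the cytoplasm bound to IκB proteins. Signals from Toll-like, interleukin-1 and TNF receptors reach the IκB kinase complex, which marks IκB for destruction and lets the dimer enter the nucleus. There it switches on cytokine, chemokine and survival genes, and also the gene of IκBα itself, so that the mRNA of this inhibitor is widely read as a product of recent NF-κB activity in macrophages.

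RNA from M2 macrophages sorted out of rat spleen was sequenced in bulk, in 10 libraries that fall into 4 groups. All rats were of the WKY /Ncrj strain, and the nephritis model used young females. The control group (n = 2) came from rats in the physiological condition, and the GN group (n = 2) came from rats with glomerulonephritis that received no stem cells. Glomerulonephritis was set off by TF78, a mouse monoclonal antibody against the glomerular basement membrane. The EV+ (n = 3) and EV- (n = 3) groups came from rats with the same disease that were also given human adipose-derived stem cells (ASCs), whose membranes had been labeled with the dye DiD. DiD-positive macrophages were called EV+, the dye being the study's sign that they had taken up extracellular vesicles (EVs), and DiD-negative macrophages were called EV-. Both therefore carried the nephritis and the ASC treatment, and no group had ASCs without nephritis. Cells were enriched with a CD11b/c antibody after enzymatic dissociation of the spleen and then sorted. The study speaks of biological replicates but neither it nor the labels say which animals gave which library, so the p-values measure the spread between these libraries.

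Promoter sequences of the genes are shown first, because NF-κB binds short DNA elements called κB sites and the inhibitors that differed between the groups are counted among its own targets. The sequences are those of RefSeq on the rat build GRCr8 and run from 250 bases before to 50 bases after the annotated transcription start. The reads had been counted on another build, rn6, and no position was carried from one build to the other. A promoter was listed for 9 of the 10 genes, all but Relb. The 2 printed whole belong to the genes that differed among the 4 groups, Nfkbiz (chr11:58251471-58251770, plus strand) and Nfkbia (chr6:78597023-78597322, minus strand). They are written 5′ to 3′ along the gene, and capitals mark a match to the κB consensus.
Nfkbiz: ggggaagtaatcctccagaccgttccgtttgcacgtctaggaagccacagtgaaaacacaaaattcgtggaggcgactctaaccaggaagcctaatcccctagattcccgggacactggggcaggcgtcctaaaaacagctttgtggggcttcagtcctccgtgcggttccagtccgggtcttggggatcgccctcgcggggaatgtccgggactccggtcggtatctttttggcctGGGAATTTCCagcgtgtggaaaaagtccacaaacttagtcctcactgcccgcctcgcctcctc
Nfkbia: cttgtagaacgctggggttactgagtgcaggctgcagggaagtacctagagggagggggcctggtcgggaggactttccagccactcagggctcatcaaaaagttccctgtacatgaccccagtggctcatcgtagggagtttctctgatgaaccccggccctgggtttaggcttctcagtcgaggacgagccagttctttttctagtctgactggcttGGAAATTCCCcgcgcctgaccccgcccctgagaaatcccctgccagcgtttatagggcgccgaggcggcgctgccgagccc

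The match in Nfkbiz lay at positions -13 to -4 from the start. That in Nfkbia lay at positions -31 to -22 on the opposite strand, and read along its own strand it had the same 10 letters as the match in Nfkbiz. Among the other genes with an expression value, a match was found in 3 promoters. They are given to show how close these elements are in sequence, each 5′ to 3′ on the gene's strand with the whole element in capitals.
Nfkb1 at positions 4 to 13: GGGAATTTCC
Nfkb2 at positions -20 to -11: GGGACTTTCC
Nfkbie at positions -164 to -155: GGGGGATTCC

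The element in Nfkb1 was thus letter for letter that of Nfkbiz. No match lay in these windows of Rela or Nfkbib. In all, 5 of the 7 genes with an expression value and 7 of the 9 listed promoters held a match. Over all 27457 RefSeq promoters of this length 4.16% did, and 4.85% of the 6970 promoters belonging to genes with an expression value did. A looser form, GGG and CC with any 5 bases between them, was present in 9 of 9 promoters. It was also in 48.5% of all promoters and in 66.5% of those belonging to genes with an expression value, so it told the genes apart poorly. These matches are letters in a window and not evidence of binding.

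**Figure D1:**
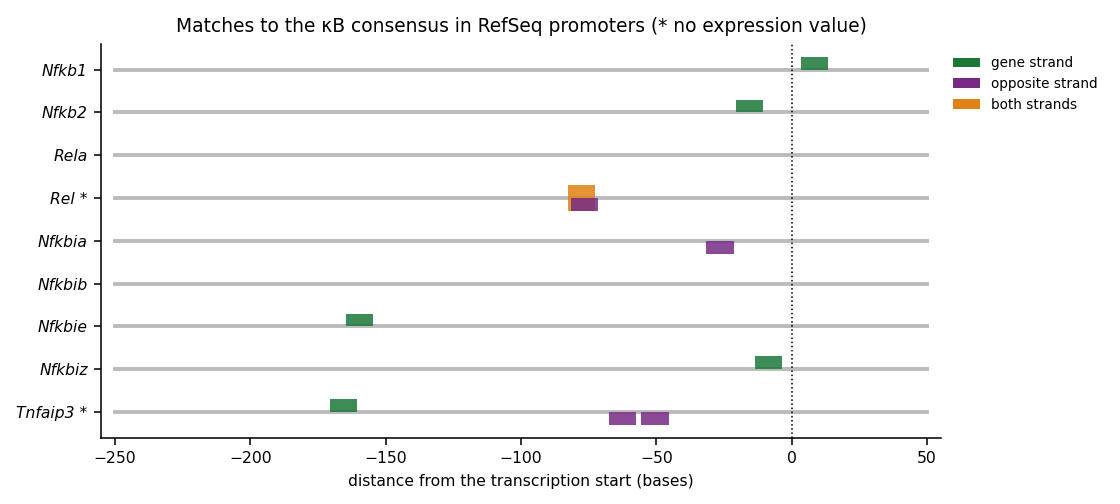
Positions of κB consensus matches in the RefSeq promoters of 9 genes, with the distance from the transcription start in bases on the horizontal axis and a grey line for the window searched. Green boxes above the line lie on the gene's strand, purple boxes below it on the opposite strand and orange boxes on both, and Rela and Nfkbib have none.

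Levels are given in CPM, that is, read counts scaled to the size of the library after TMM normalization. Between 19270515 and 26617093 reads per library fell on the genes of the table, and a count of 3 reads corresponded to between 0.113 and 0.153 CPM. Every gene of the list that was measured lay far above that floor, from 1720 reads for Nfkbib to 114216 reads for Nfkbia. Of 15 macrophage markers, 12 were in the table, and their summed level was 26932 and 27249.5 CPM in control and between 30946 and 33241 CPM in the other libraries. The macrophage gene Csf1r was between 5800.4 and 8155 CPM. The M2 markers Cd163 and Mrc1 were at most 1.81 CPM, with Cd163 at 0 in 3 libraries and Mrc1 at 0 in 2, so these markers do not show the M2 label in the RNA. NK and T cell markers summed to between 14.7 and 31.7 CPM in the control, GN and EV+ libraries but to 529.8, 83.8 and 40.0 CPM in EV- replicates 1, 2 and 3. In bulk RNA, fewer cells of a type and less RNA per cell cannot be told apart.

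Nfkbia and Nfkbiz, both listed with the inhibitor genes, were the members that differed among the 4 groups. Both were highest in control macrophages, and their means in the nephritic groups were between 51.5% and 68.3% of the control mean. The 3 measured subunit genes were close to level across the groups. Between EV+ and EV- macrophages no member passed the test. In limma's F test over the 4 groups, Nfkbiz had an adjusted p of 0.0426 and Nfkbia an adjusted p of 0.0680. Calls here and below are at a Benjamini-Hochberg false discovery rate under 0.1 over all 9003 genes, at which 2.57% of all genes were called in this test. The other 5 members had adjusted p-values from 0.433 for Nfkbie to 0.920 for Rela. Without control replicate 1 neither gene was called, and Nfkbiz alone was called without control replicate 2, without either GN replicate or without EV- replicate 1.

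**Figure D2:**
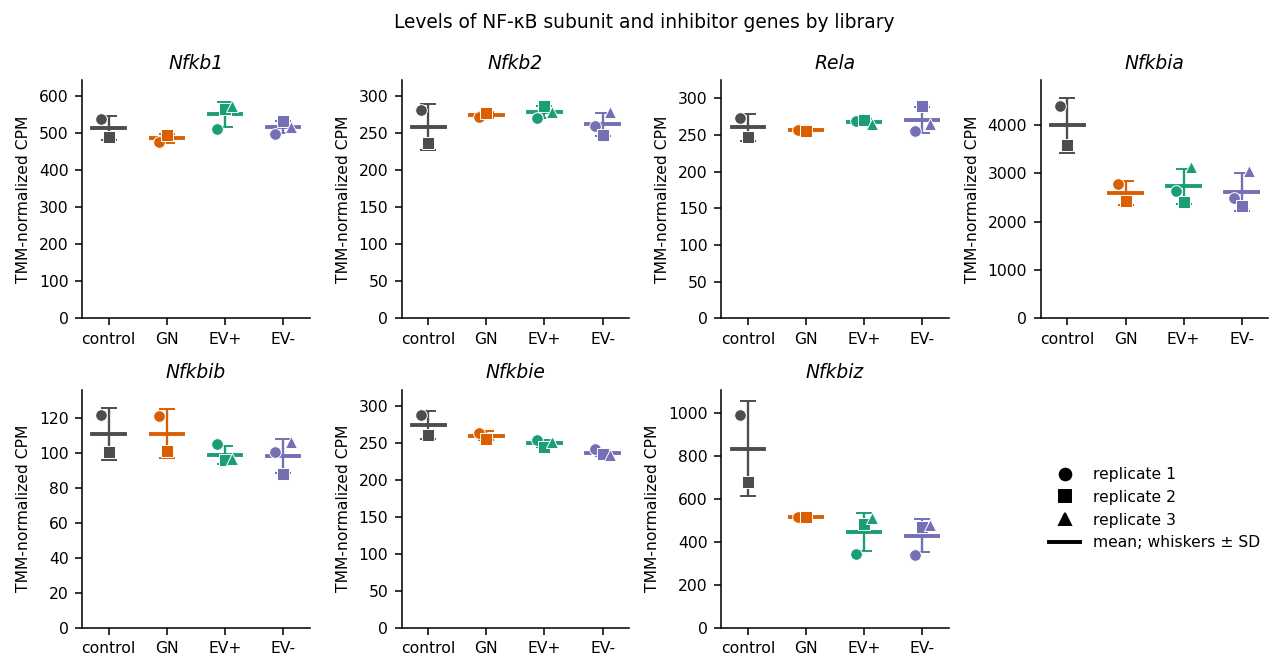
TMM-normalized CPM of the 7 measured genes in each library, by group, with each vertical axis starting at 0, horizontal bars for the group means and whiskers of 1 SD (n = 2 for control and GN, n = 3 for EV+ and EV-). Nfkbia and Nfkbiz lie higher in both control libraries than in any other library, while Nfkb1, Nfkb2 and Rela overlap between control and every other group.

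The subunit genes were considered next. Nfkb1 encodes p105, which is processed to the p50 subunit of the classical dimer. The 2 control libraries stood at 536 and 489 CPM, and GN macrophages held 476 and 494 CPM. In EV+ macrophages it was 511, 565 and 573 CPM, and in EV- macrophages 498, 532 and 516 CPM. The EV+ and EV- libraries all lay above both GN libraries, and both groups overlapped with control. How many of all genes show such an order without overlap was not counted, so nothing is concluded from it here or for the genes below. The mean was 549 ± 33.9 CPM (SD, n = 3) in EV+ and 485 ± 12.8 CPM (SD, n = 2) in GN, a log2 difference of 0.18 (95% interval 0.02 to 0.34) whose unadjusted p was 0.0329 and whose adjusted p in limma was 0.682. This difference did not pass the test.

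Rela encodes p65, the partner of p50 that carries the transactivation domain. Its level was 274 and 247 CPM in control, 256 and 256 CPM in GN, 269, 271 and 265 CPM in EV+ and 256, 290.0 and 265 CPM in EV- libraries. The libraries of all 4 groups thus lay between 247 and 290.0 CPM, and the highest was 1.17 times the lowest. Nfkb2 encodes p100, the precursor of p52 in the alternative pathway and itself an inhibitor while unprocessed. It was 281 and 236 CPM in control, 272 and 277 CPM in GN, 271, 287 and 279 CPM in EV+ and 259, 247 and 279 CPM in EV- libraries, so that the 2 control libraries spanned nearly the whole range. Over the 3 genes and the 6 comparisons between groups, the 18 log2 differences lay between -0.08 and 0.18, the widest 95% interval bounds were -0.26 and 0.34, and adjusted p-values were 0.576 or more. Differences up to those bounds are not excluded by these libraries.

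Nfkbia encodes IκBα, an inhibitor that NF-κB induces rapidly and that helps end the response by returning the dimer to the cytoplasm. The 2 control libraries held 4399.6 and 3591 CPM of it, and the 2 GN libraries 2775 and 2419 CPM. In EV+ libraries it was 2635, 2417 and 3131 CPM, and in EV- libraries 2481, 2315 and 3055 CPM. Both control libraries lay above all 8 others, and the GN, EV+ and EV- libraries overlapped with each other. Against the control mean of 3995 ± 572 CPM (SD, n = 2), the GN mean was 65.0%, the EV+ mean 68.3% and the EV- mean 65.5%.

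The fall of Nfkbia passed the test in each nephritic group. On the log2 scale of the value plus 1, the difference from control was -0.62 ± 0.14 (SE) in GN (adjusted p = 0.0658), -0.55 ± 0.13 in EV+ (adjusted p = 0.0444) and -0.61 ± 0.13 in EV- (adjusted p = 0.0316). These calls lean on control replicate 1, the library with the highest value: without it the differences were -0.47 in GN (adjusted p = 0.428), -0.41 in EV+ (adjusted p = 0.309) and -0.47 in EV- (adjusted p = 0.268). The call in GN was also lost without GN replicate 1 (-0.72, adjusted p = 0.165) or GN replicate 2 (-0.52, adjusted p = 0.507). That in EV+ was lost without EV+ replicate 2 (-0.47, adjusted p = 0.107), and that in EV- without EV- replicate 1 (-0.58, adjusted p = 0.110). Without the intensity trend in limma's variance model, which lets the spread depend on the level, all 3 calls were lost (adjusted p = 0.257 in GN, 0.182 in EV+ and 0.160 in EV-). The direction was lower than control in each of these fits.

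Nfkbiz encodes IκBζ, an atypical IκB protein of the nucleus that binds p50 and is needed for a later wave of NF-κB target genes. Its level was 991 and 677 CPM in control, 514 and 514 CPM in GN, 346, 484 and 510.0 CPM in EV+ and 340.2, 468 and 479.7 CPM in EV- libraries. Both control libraries were again above all others, though the ratio between them was larger than for any other member, and every EV+ and EV- library was below both GN libraries. The highest library held 2.91 times the lowest, the widest range among the members.

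Against a control mean of 834 ± 222 CPM (SD, n = 2), Nfkbiz reached 53.5% in EV+ and 51.5% in EV- macrophages. The log2 differences were -0.89 ± 0.18 (SE) in EV+ (adjusted p = 0.0180) and -0.95 ± 0.18 in EV- (adjusted p = 0.0168), and both passed. In GN macrophages the mean was 61.6% of control, and the log2 difference of -0.67 ± 0.20 did not pass (adjusted p = 0.169). edgeR's likelihood-ratio test did call this difference (-0.70, adjusted p = 0.0435), as did limma without EV+ replicate 1 (adjusted p = 0.0859). Without control replicate 1 the differences from control were -0.62 in EV+ (adjusted p = 0.213) and -0.67 in EV- (adjusted p = 0.216), and neither was called. Both were also lost without the intensity trend (adjusted p = 0.128 and 0.129). Without EV- replicate 1, the library with the most NK and T cell RNA, the difference in EV- was -0.79 (adjusted p = 0.0654) and was still called.

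Nfkbie encodes IκBε, a slower inhibitor that NF-κB also induces. Its level was 287 and 261 CPM in control, 263 and 255 CPM in GN, 253, 244 and 250.4 CPM in EV+ and 241, 234 and 233 CPM in EV- libraries. The group means ran from 274 ± 18.6 CPM (SD, n = 2) in control to 236 ± 4.37 CPM (SD, n = 3) in EV-, and the 3 EV- libraries lay below all libraries of the other groups. The log2 difference of EV- from control, -0.21 ± 0.07 (SE), had an unadjusted p of 0.00986 and did not pass in limma (adjusted p = 0.187), but was called by DESeq2 on the recovered reads (-0.22, adjusted p = 0.0680).

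Nfkbib encodes IκBβ, the IκB protein that is mostly not induced by NF-κB. It was the least abundant member in reads, at 122 and 101 CPM in control, 121 and 101 CPM in GN, 105, 95.8 and 96.2 CPM in EV+ and 100.2, 87.7 and 106 CPM in EV- libraries. The groups overlapped, and its 6 log2 differences had adjusted p-values of 0.562 or more.

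Counted over the members, 1 of 7 was called lower in GN than in control (Nfkbia), and 2 of 7 in EV+ and in EV- (Nfkbia and Nfkbiz). None was called higher by limma, and at an unadjusted p under 0.05 the members numbered 2 in GN, 2 in EV+ and 3 in EV-, all lower than control. At that unadjusted level all genes numbered 933 in GN, 1350 in EV+ and 1183 in EV- out of 9003, in either direction. Of all genes, 0.822% were called lower in GN, 1.81% in EV+ and 1.56% in EV-, or 1.75%, 3.63% and 2.84% in either direction. The median log2 difference of the 7 members was -0.08 in GN, -0.14 in EV+ and -0.18 in EV-, and that of all genes was within 0.01 of 0. The 3 comparisons share the control libraries and so are not independent of each other.

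**Figure D3:**
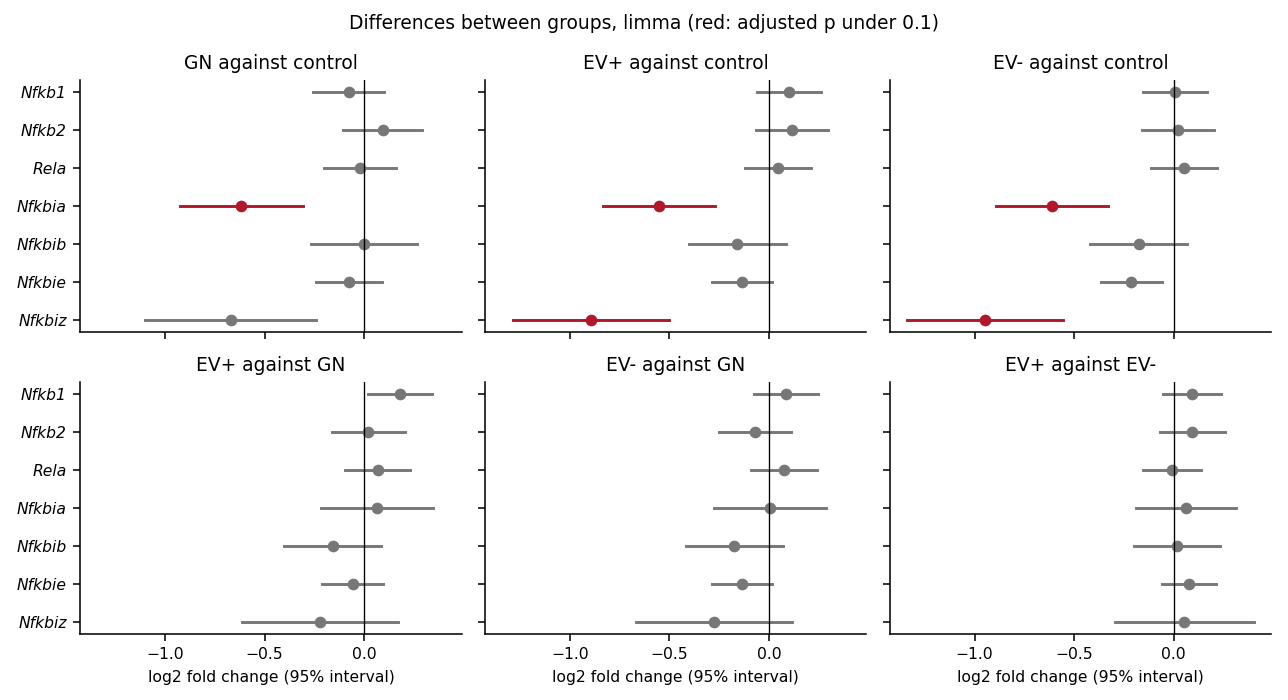
Log2 fold changes of the 7 measured genes in 6 comparisons between groups, with points for limma's estimate, lines for its 95% interval and red for an adjusted p under 0.1. Red appears for Nfkbia in the 3 comparisons with control and for Nfkbiz in EV+ and EV- against control, and nowhere in the lower row.

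The ratio of inhibitor to subunit reads within a library does not depend on how libraries are scaled. Read counts are not divided by gene length here, so the ratio serves to compare libraries and not the 2 genes. For every Rela read, control libraries held 16.1 and 14.5 Nfkbia reads, GN libraries 10.8 and 9.44, EV+ libraries 9.80, 8.92 and 11.8, and EV- libraries 9.70, 7.98 and 11.5. The control libraries stood apart and the other 3 groups overlapped. Nfkbiz reads per Rela read were 3.62 and 2.74 in control, 2.01 and 2.01 in GN, 1.28, 1.79 and 1.92 in EV+ and 1.33, 1.62 and 1.81 in EV- libraries. Again control was above the rest.

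Nfkbie reads per Rela read were narrower, with a mean of 1.05 ± 0.00365 (SD, n = 2) in control, 1.01 ± 0.0218 in GN, 0.928 ± 0.0255 (SD, n = 3) in EV+ and 0.876 ± 0.0666 in EV- libraries. All EV+ and EV- libraries were below all control and GN libraries in this ratio. Nfkbib reads per Rela read were between 0.302 and 0.471 over all libraries, and the groups overlapped. No test was made on these ratios, and no conclusion is drawn from the order of the libraries in them.

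**Figure D4:**
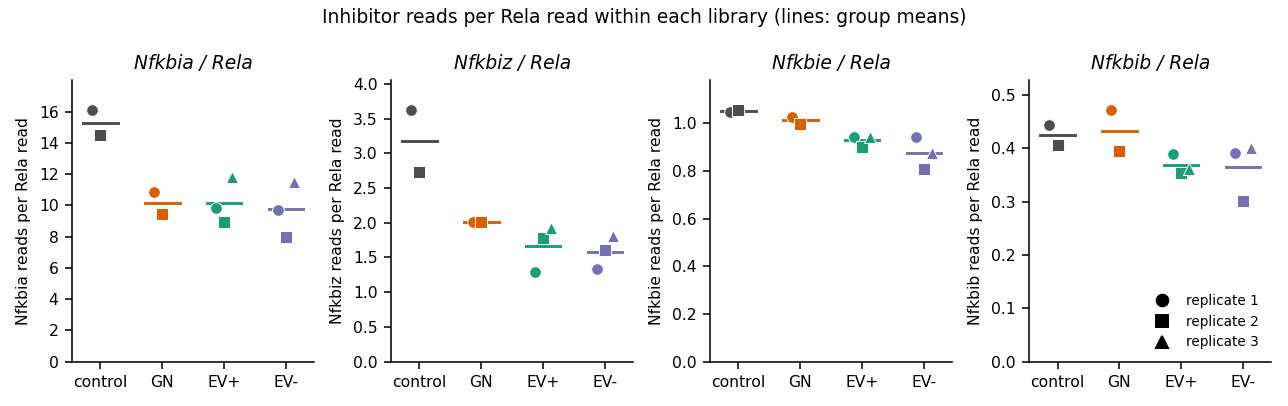
Reads of 4 inhibitor genes per Rela read in each library, with each vertical axis starting at 0, marker shapes for the replicate numbers and lines for the group means. Nfkbia reaches 14.5 and 16.1 in control and at most 11.8 elsewhere, and Nfkbiz 2.74 and 3.62 in control and at most 2.01 elsewhere.

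The next question was whether macrophages that took up EVs differed from those that did not, and from those of untreated nephritis. For the members, limma called 0 genes in EV+ against GN, 0 in EV- against GN and 0 in EV+ against EV-. The unadjusted p was under 0.05 for 1, 0 and 0 members, the first being Nfkb1, and for 642, 707 and 411 of all 9003 genes. The quasi-likelihood and likelihood-ratio tests of edgeR and DESeq2 also called 0 members in each. Of all genes, limma called 0.122%, 0.378% and 0.0222% in these comparisons. The last share is 2 genes, and the count was 49 with the EV+ and EV- libraries fitted as pairs on their own and 57 in the likelihood-ratio test.

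Between EV+ and EV- the members' log2 differences lay between -0.01 for Rela and 0.09 for Nfkb2, each with an adjusted p of 0.9997, and the 95% intervals spanned -0.30 to 0.40 at their widest, for Nfkbiz. The labels do not say that the replicate numbers pair EV+ and EV- libraries. Same-numbered libraries were taken as pairs because their deviations from the group means correlated at 0.241, 0.335 and 0.136 over genes. Nfkbia in EV+ was 1.06, 1.04 and 1.02 times its level in the EV- library of the same number. Nfkbiz was 1.02, 1.03 and 1.06 times, Nfkbie 1.05, 1.04 and 1.08 times, and Nfkb1 1.03, 1.06 and 1.11 times. EV+ was thus the higher library in 3 of 3 pairs for these 4 genes and for Nfkb2, in 2 of 3 for Nfkbib and in 1 of 3 for Rela. The share of all genes with EV+ higher in every pair was not counted, so no conclusion is drawn from this order. Over all 9003 genes, limma's difference of EV+ from EV- was above 0 for 4262 and below 0 for 4740. With the pair as a block in the 6 EV libraries alone, a fit chosen after the data were seen, Nfkbia was 0.06 ± 0.04 (SE) higher on the log2 scale (95% interval -0.02 to 0.14, adjusted p = 0.733) and Nfkb1 0.09 ± 0.04 (95% interval -0.01 to 0.19, adjusted p = 0.650). None of the members passed in that fit either. For Nfkbia the bounds in that paired fit are small beside the difference from control. Limma's main fit over all 10 libraries gave Nfkbia a wider 95% interval, -0.19 to 0.31.

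Against GN, Nfkbia differed by 0.07 in EV+ (95% interval -0.22 to 0.35) and by 0.00 in EV- (-0.28 to 0.29). Nfkbiz differed by -0.22 in EV+ (95% interval -0.61 to 0.17) and by -0.28 in EV- (-0.67 to 0.12), and neither difference passed (adjusted p = 0.876 and 0.873). Nfkbie differed by -0.06 in EV+ and by -0.14 in EV-, without a call (adjusted p = 0.925 and 0.690). For both genes no library of either EV group reached the GN libraries. The share of all genes with such an order was not counted, so no conclusion is drawn from it.

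The other genes of the pathway were taken in the order of the signal. Among the receptors, 17 of 18 listed genes were in the table. In GN against control 1 was called higher and 1 lower, in EV+ 1 higher and 1 lower, and in EV- 1 lower. Cd14, the co-receptor that hands lipopolysaccharide to Tlr4, rose from 118 ± 31.6 CPM (SD, n = 2) in control to 183 ± 33.8 CPM in GN (log2 difference 0.65, adjusted p = 0.0998) and 196 ± 16.6 CPM in EV+ (0.75, adjusted p = 0.0180). It was 146 ± 16.5 CPM in EV- (0.33, adjusted p = 0.379). Tlr9, the endosomal receptor for unmethylated DNA, fell from 46.7 ± 4.37 CPM in control to 26.6 ± 1.82 CPM in GN (-0.79, adjusted p = 0.0452), 31.7 ± 4.70 CPM in EV+ (-0.55, adjusted p = 0.0997) and 30.1 ± 5.36 CPM in EV- (-0.63, adjusted p = 0.0683). Several of these calls were close to the threshold. Of 18 alternatives tried, the call held in 9 for Cd14 in GN and in 9 for Tlr9 in EV+, and leaving out control replicate 2 ended every call of both genes. Dropping the intensity trend also ended all calls of both genes, leaving out control replicate 1 ended the 3 calls of Tlr9, and leaving out either GN replicate ended the calls of both genes in GN. B cells also express Tlr9, and 5 of 8 B cell markers in the table summed to 90.6 and 111 CPM in control and to between 45.1 and 78.8 CPM elsewhere, a part in the result that was not tested.

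Among adaptors and kinases, 24 of 28 listed genes were in the table, and 1 was called, higher than control in each nephritic group. It was Ikbke, which encodes the IκB kinase-related kinase IKKε. Its level was 80.4 and 60.1 CPM in control, 121 and 109.8 CPM in GN, 100.3, 125 and 106 CPM in EV+ and 116, 110.4 and 107 CPM in EV- libraries. Both control libraries were below all others. The log2 differences from control were 0.72 ± 0.13 (SE) in GN (adjusted p = 0.0179), 0.65 ± 0.12 in EV+ (adjusted p = 0.0118) and 0.67 ± 0.12 in EV- (adjusted p = 0.0127). The highest adjusted p over the alternatives was 0.196, 0.205 and 0.200, and no call was made without control replicate 2, nor in GN without either GN replicate. Without the intensity trend in limma's variance model the calls in GN (adjusted p = 0.132) and EV- (adjusted p = 0.108) were lost as well.

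Of 16 further inhibitors of the pathway, 11 were in the table, and limma called 0 in each comparison between groups. At an unadjusted p under 0.05 against control they numbered 2 in GN, 3 in EV+ and 4 in EV-, and all 9003 genes gave 933, 1350 and 1183. The quasi-likelihood and likelihood-ratio tests also called 0 against control, and DESeq2 called 1, Tank in EV-. Bcl3, an IκB-like protein that binds p50 and p52 homodimers in the nucleus, differed among the 4 groups in the F test (adjusted p = 0.0791). Its level was 87.3 ± 9.25 CPM (SD, n = 2) in control, 75.3 ± 5.56 CPM in GN, 101 ± 3.02 CPM (SD, n = 3) in EV+ and 101 ± 4.64 CPM in EV-. The log2 difference from GN was 0.41 in both EV groups, with adjusted p-values of 0.212 in EV+ and 0.134 in EV- in limma, while edgeR's likelihood-ratio test and DESeq2 called Bcl3 in both. Tank, a scaffold that restrains signaling through TRAF proteins, was 186 ± 2.30 CPM in control and between 157 and 164 CPM on average in the other groups (F test, adjusted p = 0.390).

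Target genes of NF-κB were represented by 24 of 30 listed genes. Against control, 3 were called lower in GN, 6 in EV+ and 7 in EV-, and limma called 0 higher. Limma called 2 of them lower in EV- than in GN and 0 in EV+ against GN. In EV+ against GN, 6 of them and 642 of all 9003 genes had an unadjusted p under 0.05, and the likelihood-ratio test and DESeq2 called 3 of them each. The median log2 difference of the list was -0.26 in GN, -0.38 in EV+ and -0.45 in EV-, and in each of these groups 8 of the 24 genes were higher than control. Without control replicate 1 the calls numbered 2, 4 and 4.

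The chemokine gene Ccl3 fell most steeply among the named targets. It was 825 and 563 CPM in control, 325 and 325 CPM in GN, 214, 169 and 205 CPM in EV+ and 253, 178 and 211 CPM in EV- libraries. The groups formed steps without overlap, from control to GN to the EV groups. The log2 difference from control was -1.07 in GN (adjusted p = 0.00786), -1.80 in EV+ (adjusted p = 2.62e-05) and -1.68 in EV- (adjusted p = 5.32e-05). The step from GN to EV+ was -0.73 (adjusted p = 0.187) and did not pass in limma, though edgeR's likelihood-ratio test and DESeq2 called it. The call in GN against control was lost without GN replicate 1 (adjusted p = 0.101) and without the intensity trend (adjusted p = 0.118).

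Gadd45b, a stress-response gene that dampens JNK signaling, fell to 60.3% of the control mean in GN, 50.7% in EV+ and 51.1% in EV-, with log2 differences of -0.72 (adjusted p = 0.00290), -0.98 (adjusted p = 3.55e-05) and -0.96 (adjusted p = 5.32e-05). It was called in all 18 alternatives in each of these 3 comparisons. Il1b, which encodes interleukin-1β, fell from 4473 ± 967 CPM (SD, n = 2) in control to 2844 ± 104 CPM in GN (-0.64, adjusted p = 0.0772), 3022 ± 379 CPM in EV+ (-0.56, adjusted p = 0.0624) and 2631 ± 435 CPM in EV- (-0.76, adjusted p = 0.0141). As with Nfkbia, the calls of Il1b were lost without control replicate 1 or without the intensity trend, in GN also without either GN replicate, and in EV+ also without either GN replicate or EV+ replicate 1 or 2. Ier3, an early response gene of cell survival, fell to 51.9% of control in EV+ (log2 difference -0.94, adjusted p = 0.0180) and 51.0% in EV- (-0.95, adjusted p = 0.0214), and these calls too were lost without that library, that in EV- also without the intensity trend.

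Cd83, a marker of activated antigen-presenting cells, separated EV- from GN. Its level was 162 and 112 CPM in control, 116 and 113 CPM in GN, 67.8, 80.3 and 78.9 CPM in EV+ and 49.5, 51.1 and 51.9 CPM in EV- libraries. The EV- libraries were the lowest, then came the EV+ libraries, and no library of either overlapped with another group. The log2 difference of EV- from GN was -1.15 (adjusted p = 0.000832) and was called in 18 of 18 alternatives. That of EV+ from EV- was 0.56 (95% interval 0.31 to 0.81) and did not pass in limma (adjusted p = 0.247), in which 0 targets were called between the EV groups, but the likelihood-ratio test and DESeq2 called it. Vcam1, an adhesion molecule, was low throughout, at 7.43 ± 1.86 CPM (SD, n = 2) in GN and 1.99 ± 0.95 CPM (SD, n = 3) in EV-. The call of this log2 difference of -1.53 (adjusted p = 0.0406) was lost without either GN replicate or without the intensity trend. Its mean was 4.76 CPM in control and 2.30 CPM in EV+. EV+ differed from GN by -1.34 (adjusted p = 0.185) and from EV- by 0.19, and neither difference passed in limma.

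**Figure D5:**
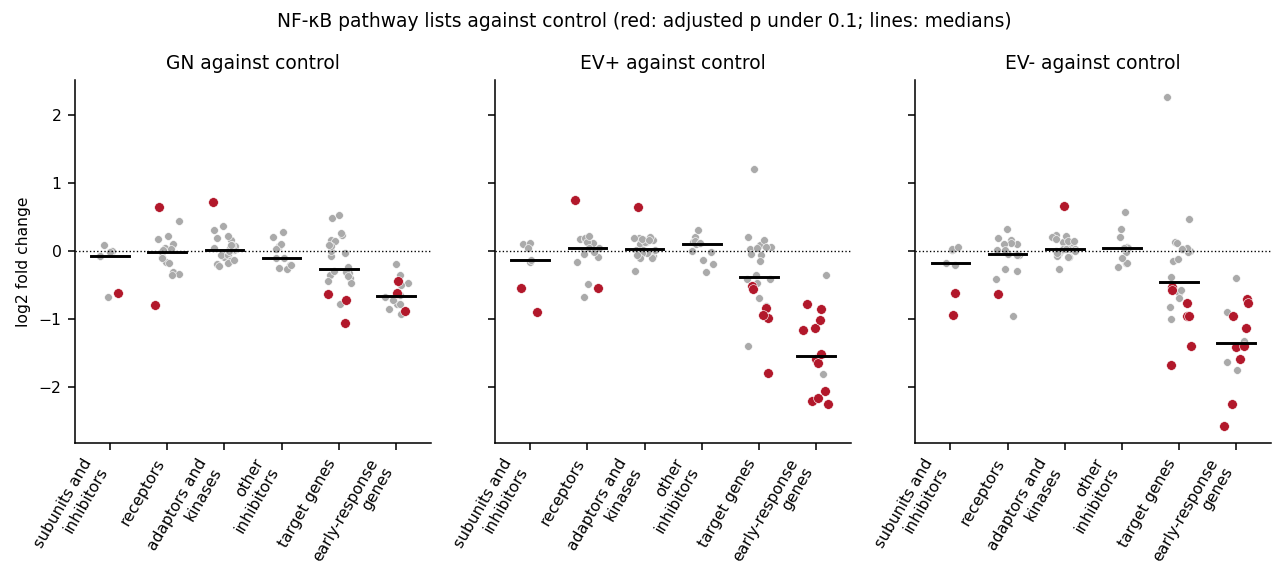
Log2 fold changes against control of the genes of 6 lists in GN, EV+ and EV- macrophages, with a point for each gene, red for an adjusted p under 0.1 and black lines for the medians. The medians of receptors, adaptors and kinases, and other inhibitors lie near 0, those of the target genes at -0.26, -0.38 and -0.45, and those of the early-response genes at -0.66, -1.55 and -1.36.

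Genes of the early response to stimuli and to tissue dissociation were lower than control in the groups in which Nfkbia and Nfkbiz were lower. The list was chosen with earlier results of these data known. All 14 listed genes, among them Fos, Jun, Egr1, Atf3, Zfp36 and Dusp1, had lower mean log2 levels than control in every nephritic group. Of them, 3 were called lower in GN, 12 in EV+ and 9 in EV-, against 0.822%, 1.81% and 1.56% of all genes. They also stood lower in both EV groups than in GN, with 3 called in EV+ and 4 in EV-. Of all 9003 genes, 5 were called lower than GN in EV+ and 29 in EV-. At this step Nfkbia differed by 0.07 in EV+ and 0.00 in EV-, Nfkbiz by -0.22 and -0.28, and Nfkbie by -0.06 and -0.14. Of the 7 members, 3 were lower than GN in EV+ and 4 in EV-, and no member was called. The summed level of the 14 early-response genes was 26970.3 and 22828 CPM in control replicates 1 and 2, and 18521 and 16706 CPM in GN. It was between 11099 and 12447 CPM in EV+ and between 11665 and 13358 CPM in EV- libraries. Control replicate 1, the highest library for Nfkbia, Nfkbiz and Il1b, was also the highest here. The part of these early-response genes in the result was not tested.

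The genes most like the members over the 10 libraries were sought among 7186 genes with a mean of at least 5 CPM. Nfkbiz was followed most closely by Btg2 (Pearson r = 0.97 on the log2 scale), Taf3 (0.96) and Siah2 (0.95). Nfkbia was followed by the chemokine receptor gene Cxcr4 (0.96), Il1b (0.96) and Helz2 (0.93), and Nfkbie by Egr1 (0.94), Cd83 (0.92) and Icam1 (0.92). Btg2 and Egr1 are also on the early-response list. Cxcr4, for example, was 548 ± 60.1 CPM (SD, n = 2) in control, 305 ± 6.40 CPM in GN, 337 ± 47.2 CPM (SD, n = 3) in EV+ and 347 ± 38.7 CPM in EV-. The 10 points of each correlation share the group structure, library scaling and control libraries, so these are descriptions without a test.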

How the data were processed

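RNA of M2 macrophages, converted to cDNA with SMART-Seq v4 and made into libraries with Nextera XT, was sequenced with paired ends. The authors aligned the reads with STAR 2.5.3 to rn6, counted them with HTSeq 0.6.0 in intersection-strict mode, removed genes whose highest CPM was below 1 and deposited a normalized signal, TMM-normalized CPM from edgeR, for 10 libraries. The table held 9003 genes, of which 18 had symbols turned into dates. Within a tolerance of 0.02, 100% of the values gave whole reads, and these recovered reads served the count tests and the depths. TMM factors recomputed from them gave the deposited values. Depths are given with the results. The floor of 3 reads covers counting error only.

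Groups followed the labels, whose names EVposi and EVnega are written EV+ and EV-. Since the values are not counts, log2(value + 1) was fitted for all genes and 4 groups with limma 3.58.1 in R 4.3.3, with an intensity trend. Fold changes are on this scale, and every adjusted p in the text is from this limma fit with the Benjamini-Hochberg method over all genes, with a threshold of 0.1, unless another test is named. Tests are two-sided. Alternatives were edgeR 4.0.16 (quasi-likelihood and likelihood-ratio tests) and DESeq2 1.42.0 on the recovered reads, RLE size factors, a pseudocount of 0.1, at least 1 CPM in at least 2 libraries, no intensity trend, a threshold of 0.05, the replicate number as a block and leaving out each library in turn. The scripts were tested on simulated data.

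The replicate numbers were taken to pair EV+ and EV- libraries, because the deviations of same-numbered libraries from their group means correlated at 0.241, 0.335 and 0.136 over genes, while for control and GN, with only 2 pairs, the correlation was 0.0878. No 2 libraries of the same group agreed within sampling noise, and pairs across groups were not compared. The genes and lists were chosen with earlier results of these data known. All measured members were named, with at most 6 genes per pathway list that were called between groups, smallest F-test p first, or the 2 with the smallest p where none was called. For the 3 members with the smallest F-test p, the 3 genes of highest Pearson correlation among those with a mean of at least 5 CPM were named. Promoters were shown for members called among the 4 groups, and proteins were not shown. The pathway genes' alternatives and the block in EV+ and EV- libraries alone were chosen after seeing the data. Motifs were searched in RefSeq promoters of GRCr8.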

Additional observations from a re-analysis of the deposited data

How the results depend on the processing

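Without the intensity trend, limma called 0 members in the 4-group test and in GN, EV+ and EV- against control, where 2, 1, 2 and 2 had been called. At a threshold of 0.05 the 4-group test called 1 member and GN against control 0, and the likelihood-ratio test called 2 in the latter. Leaving out each library in turn gave from 0 to 2 members in the 4-group test and in each comparison with control, always 0 without control replicate 1. In the comparisons among GN, EV+ and EV-, each alternative called 0 members. Of the member values under the alternatives, 76 called values were still called and 14 were not, with none of these changing sign, and 3 others became called.

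The replicate block changed no call of a member. It turned the sign of 5 small differences that were not called: Nfkb1 in EV- against control (-0.0079), Nfkb2 in EV+ against GN (-0.0017) and in EV- against control (-0.0016), and Nfkbia in EV+ (-0.044) and in EV- (-0.11) against GN. Leaving out a library also turned the sign of uncalled differences, which ranged as follows. For Nfkb1 in EV- against control the range was -0.058 to 0.075. For Nfkb2 against control it was -0.030 to 0.22 in GN, -0.0087 to 0.24 in EV+ and -0.10 to 0.15 in EV-. For Rela against control it was -0.095 to 0.050 in GN, -0.028 to 0.12 in EV+ and -0.020 to 0.13 in EV-. Between EV+ and EV- it was -0.047 to 0.043 for Rela, -0.042 to 0.18 for Nfkbia, -0.062 to 0.076 for Nfkbib and -0.11 to 0.23 for Nfkbiz. For Nfkbia against GN it was -0.038 to 0.16 in EV+ and -0.11 to 0.10 in EV-, and for Nfkbib in GN against control -0.14 to 0.14. The cause was not tested.

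Over all genes, the 4-group test called 231, but 93 without the trend, 616 in the likelihood-ratio test and 543 in DESeq2. In the same order of alternatives the counts were 158, 60, 292 and 294 in GN against control, 327, 186, 516 and 540 in EV+ against control, and 256, 94, 444 and 474 in EV- against control. They were 11, 0, 43 and 41 in EV+ against GN, 34, 6, 126 and 113 in EV- against GN, and 2, 0, 57 and 34 in EV+ against EV-. The block gave 30, 53 and 5 in the last 3, and 49 in EV+ against EV- when fitted to these 6 libraries alone, and a pseudocount of 0.1 gave 4 there. Every measured member had at least 1720 reads in each library, and the comparisons with control rest on 2 control libraries.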
